A study of Homo sapiens with 16 samples.

Results

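Respiratory chain genes carried by the mitochondrial genome were examined in 2 colorectal cancer cell lines treated with itraconazole. The set held 10 genes, MT-ND1, MT-ND2, MT-ND3, MT-ND4, MT-ND5, MT-CYB, MT-CO1, MT-CO2, MT-CO3 and MT-ATP6, which were matched by symbol to the Ensembl identifiers of the count files. All 10 were found, and each had counts in every library. They are 10 of the 13 protein genes and of the 37 genes of the mitochondrial genome, among 54127 gene rows. The genes were chosen by their measured values, the shares of counts and the treatment differences of these libraries, so those values are a description, and where counts of edgeR calls are printed for them nothing is read from the counts.

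Mitochondrial DNA is a small circle kept in many copies per cell. It is read from both strands into long RNAs, which are cut, mostly at the transfer RNAs that lie between the genes, into ribosomal, transfer and messenger RNAs, and the level of each mature RNA then depends on how it is processed and degraded. The encoded proteins are core subunits of respiratory complexes I, III and IV and of ATP synthase (complex V), which are completed by nuclear subunits, whereas complex II is encoded in the nucleus alone. In colon epithelium, differentiated cells rely strongly on mitochondrial respiration.

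The experiment asked which transcripts change when HT55 and SW948, established human colorectal cancer lines, are exposed to itraconazole, an azole antifungal. Each line was given 5 µM itraconazole or its solvent DMSO, and RNA was sequenced at day 6. Line and treatment gave 4 groups of 4 libraries each. The study describes its experiments as biological quadruplicates, and the labels give no batch.

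Gene counts ran from 8269406 to 11110814 per library. All 10 colon epithelial markers examined, EPCAM and CDX2 among them, were above a mean of 1 CPM (counts scaled to a common library size) in each group. Of 11 markers of blood, stromal and endothelial cells, 4 or 5 per group were at 0 counts, and 2 exceeded 1 CPM. Their summed level ran from 24.4 to 31.4 CPM in SW948 DMSO and from 103 to 119 with itraconazole, and from 30.4 to 35.4 and from 23.7 to 59.2 in HT55, mostly CD68, a lysosomal protein that is also found outside blood cells. The part of these markers in the results below was not tested. In bulk RNA, fewer cells with a transcript and less of it per cell cannot be told apart.

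Where the genes lie bears on how their counts can be read. Most of the 10 are separated by transfer RNA genes, but MT-CO3 starts on the last base of MT-ATP6, with no transfer RNA gene between them. In addition, MT-ATP6 starts inside MT-ATP8 and MT-ND4 starts inside MT-ND4L, and each of these latter pairs is known to be carried by a single messenger RNA. The stretches across the overlaps are shown because the paired genes are used below as a check on the counts. They were read from the plus strand of GRCh37, at chrM:8521-8578 and chrM:10748-10778. Capitals mark the start codon of the downstream gene and the stop codon of the upstream gene.
MT-ATP8 and MT-ATP6 overlap: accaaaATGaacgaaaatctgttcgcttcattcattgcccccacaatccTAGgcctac
MT-ND4L and MT-ND4 overlap: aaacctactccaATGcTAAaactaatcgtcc
The first pair shares 46 bases and the second 7. A read that touches both genes of a pair may have been set apart as ambiguous or given to either, since the counting mode is not stated.

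The last 24 bases of 4 genes that differed in opposite directions in SW948 are given next, MT-ND4 and MT-ND5 with higher and MT-CO3 and MT-CYB with lower proportions after itraconazole, again from the plus strand of GRCh37 (MT-CO3 at chrM:9967-9990, MT-ND4 at chrM:12114-12137, MT-ND5 at chrM:14125-14148 and MT-CYB at chrM:15864-15887). Capitals mark the encoded part of the stop codon. Among the 10 genes, 6 encode only T or TA, and the codon is completed when the RNA receives its poly(A) tail.
MT-CO3: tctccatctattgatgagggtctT
MT-ND4: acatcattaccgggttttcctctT
MT-ND5: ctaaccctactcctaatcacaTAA
MT-CYB: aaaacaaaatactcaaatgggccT
An incomplete stop codon was found in MT-ND4 as in MT-CYB and MT-CO3, while MT-ND5 ends with a whole codon. Of the other genes, MT-CO1, with a higher proportion in treated SW948, and MT-CO2 and MT-ATP6, with lower ones, end with a whole codon. MT-ND1 and MT-ND2, with lower proportions, and MT-ND3, which overlapped, do not. A relation between stop codon and direction was not tested.

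Levels were measured in 2 ways. The share is the count of a gene as a percentage of all gene counts of its library. The log2 difference is the fitted value of itraconazole minus DMSO from edgeR after TMM scaling, which sets the bulk of genes near 0. With plain library totals the median of all genes was -0.18 in HT55 and -0.35 in SW948, against -0.015 and -0.025 with TMM, so a difference read from shares lies lower by about that amount. Both scales are given where the direction depends on them.

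The summed share of the 10 genes in HT55 was 1.90%, 1.83%, 1.87% and 1.80% in the DMSO libraries and 2.30%, 2.33%, 2.36% and 2.18% in the itraconazole libraries. In SW948 it was 1.17%, 0.977%, 0.816% and 0.833% with DMSO and 1.86%, 1.04%, 1.12% and 1.45% with itraconazole. The treated HT55 libraries lay above every control library. In SW948 the ranges overlapped, and replicate 1 was highest in both groups. The means were 1.85% ± 0.0446 and 2.30% ± 0.0779 in HT55, and 0.948% ± 0.163 and 1.37% ± 0.373 in SW948 (SD, n = 4).

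Single genes did not move alike. The median log2 difference over the 10 genes was 0.50 in HT55 and 0.70 in SW948, with a range from -0.23 to 0.76 in HT55 and from -0.95 to 1.71 in SW948. On plain totals the medians were 0.34 and 0.38. In HT55, 8 of the 10 genes were called higher and 1 lower by the edgeR quasi-likelihood test, in a comparison where 54.0% of the 12133 genes tested were called, 27.5% higher and 26.5% lower. In SW948, 6 were called higher and 1 lower, where 80.2% of 12505 genes were called, 38.9% higher and 41.3% lower. The genes were chosen with these comparisons in view, and nothing is read from the counts.

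**Figure D1:**
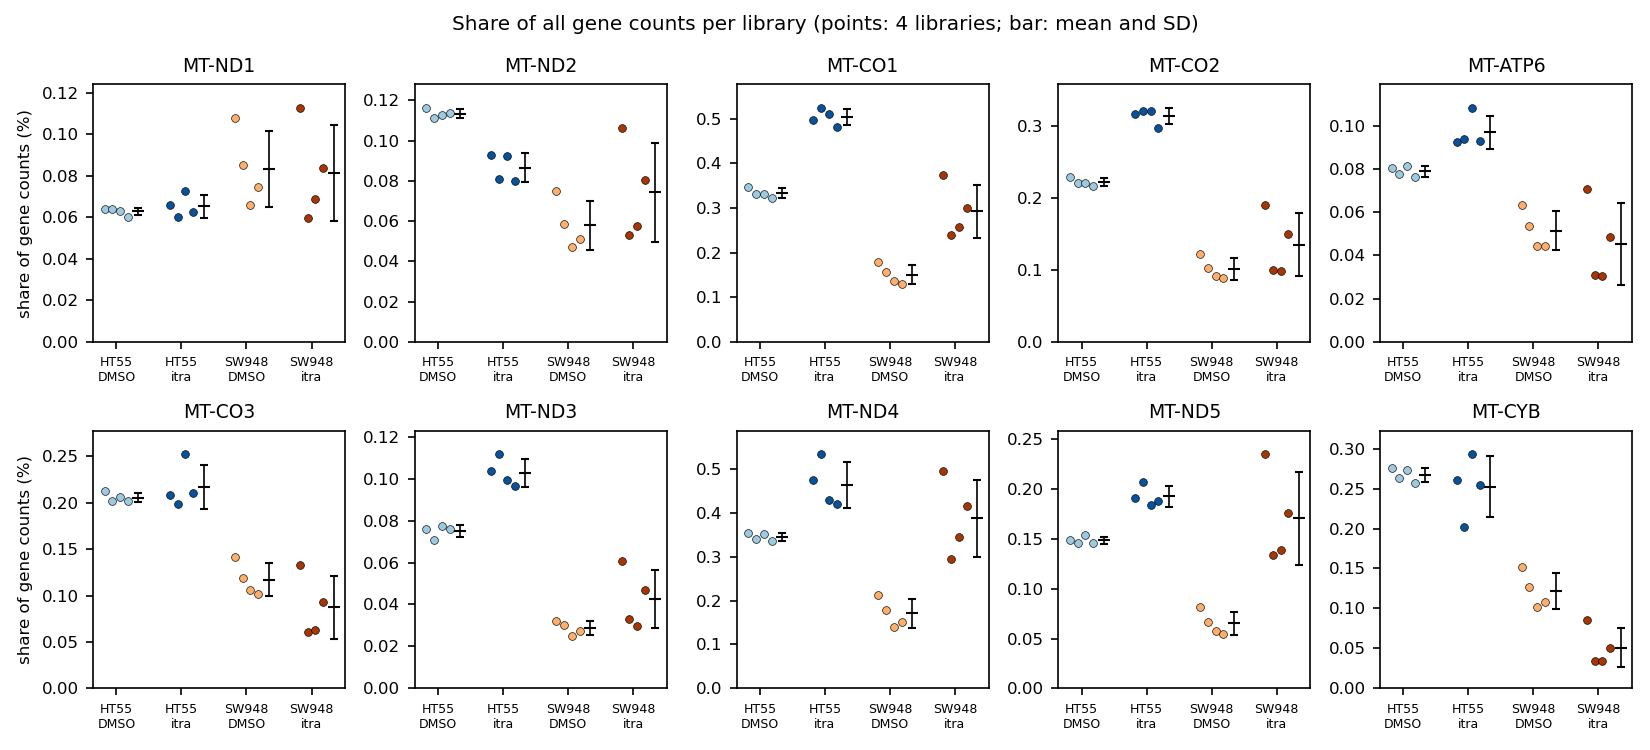
Share of all gene counts (percent) of each of the 10 genes in every library, with the mean and SD of 4 libraries beside the points and a separate scale for each gene. MT-CO1, MT-ND4 and MT-ND5 were higher in all treated libraries of both lines, whereas MT-CYB was lower in all treated SW948 libraries and overlapped in HT55.

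MT-ND5 and MT-ND4 showed the largest excess with itraconazole in SW948. Both encode proton-pumping subunits in the membrane arm of complex I, the NADH dehydrogenase. The share of MT-ND5 was 0.0813%, 0.0663%, 0.0581% and 0.0549% with DMSO and 0.235%, 0.134%, 0.139% and 0.176% with itraconazole. The share of MT-ND4 was 0.213%, 0.179%, 0.139% and 0.151% with DMSO and 0.495%, 0.295%, 0.344% and 0.415% with itraconazole. For each gene the lowest treated library was above the highest control. The log2 differences were 1.71 ± 0.15 for MT-ND5 and 1.5 ± 0.15 for MT-ND4 (SE).

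In HT55 the same pair was higher in each treated library by a smaller amount. MT-ND5 had shares of 0.149%, 0.146%, 0.154% and 0.146% with DMSO and 0.191%, 0.208%, 0.184% and 0.188% with itraconazole. MT-ND4 had 0.353%, 0.341%, 0.351% and 0.335% with DMSO and 0.475%, 0.533%, 0.428% and 0.419% with itraconazole. The log2 differences were 0.55 ± 0.078 and 0.60 ± 0.10 (SE).

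MT-ND3, another membrane subunit of complex I, was higher in every treated HT55 library, with shares of 0.0710% to 0.0775% with DMSO and 0.0963% to 0.112% with itraconazole. In SW948 it ran from 0.0250% to 0.0323% and from 0.0299% to 0.0606%, so that the ranges overlapped. The log2 differences were 0.62 ± 0.08 in HT55 and 0.89 ± 0.15 in SW948 (SE).

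MT-ND2, also in the membrane arm, differed in direction between the lines. Its share in HT55 was 0.116%, 0.111%, 0.113% and 0.114% with DMSO and 0.0930%, 0.0808%, 0.0923% and 0.0800% with itraconazole. In SW948 it was 0.0748%, 0.0587%, 0.0473% and 0.0512% with DMSO and 0.106%, 0.0530%, 0.0575% and 0.0805% with itraconazole. Every treated HT55 library lay below the controls, and the SW948 ranges overlapped. The log2 differences were -0.23 ± 0.066 and 0.67 ± 0.18 (SE), and the difference between the lines was 0.93 ± 0.21 on TMM scaling and 0.75 ± 0.23 on plain totals.

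MT-ND1, which forms part of the ubiquinone-binding region of complex I, overlapped between treatments in both lines. Its share ran from 0.0601% to 0.0641% with DMSO and from 0.0602% to 0.0728% with itraconazole in HT55, and from 0.0659% to 0.108% and from 0.0598% to 0.113% in SW948. The log2 difference in HT55 was 0.22 ± 0.06 with TMM and 0.06 ± 0.067 with plain totals (SE). In SW948 it was 0.28 ± 0.16 with TMM and -0.04 ± 0.18 with plain totals (SE), so that its sign there depended on the scaling.

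MT-CYB encodes cytochrome b, the only subunit of complex III, the cytochrome bc complex, that mitochondria encode. In SW948 its share was 0.152%, 0.126%, 0.101% and 0.109% with DMSO and 0.0850%, 0.0339%, 0.0347% and 0.0504% with itraconazole. The highest treated library, replicate 1, lay below the lowest control. It was the only one of the 10 genes to lie below the controls in every treated SW948 library, while 3 lay above and 6 overlapped. Among all genes tested in SW948, 51.8% lay below and 23.1% above in the same way. The log2 difference was -0.95 ± 0.22 with TMM and -1.26 ± 0.24 with plain totals (SE), and leaving out each library in turn gave values from -1.25 to -0.80 on TMM scaling.

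In HT55 the share of MT-CYB was 0.276%, 0.264%, 0.273% and 0.257% with DMSO and 0.261%, 0.202%, 0.293% and 0.255% with itraconazole. Replicate 2 was the lowest and replicate 3 the highest of the treated libraries, and the groups overlapped. The log2 difference was 0.08 ± 0.087 with TMM and -0.08 ± 0.099 with plain totals (SE). The difference between the lines in their treatment values was -1.0 ± 0.27 on TMM scaling and -1.18 ± 0.30 on plain totals.

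MT-CO1 encodes the catalytic subunit of cytochrome c oxidase, complex IV, and had the highest log2 difference of the 10 genes in HT55. Its share in HT55 was 0.348%, 0.332%, 0.331% and 0.322% with DMSO and 0.496%, 0.524%, 0.510% and 0.482% with itraconazole. In SW948 it was 0.179%, 0.156%, 0.136% and 0.131% with DMSO and 0.373%, 0.240%, 0.256% and 0.300% with itraconazole. The groups did not overlap in either line. The log2 differences were 0.76 ± 0.073 and 1.28 ± 0.12 (SE).

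MT-CO2, which carries the copper centre that accepts electrons from cytochrome c, had shares of 0.217% to 0.230% with DMSO and 0.298% to 0.322% with itraconazole in HT55. In SW948 the ranges were 0.0891% to 0.123% and 0.0993% to 0.190% and overlapped. The log2 differences were 0.67 ± 0.069 in HT55 and 0.73 ± 0.16 in SW948 (SE).

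MT-CO3, the third subunit of the core of complex IV, did not follow MT-CO1. Its share in SW948 was 0.142%, 0.119%, 0.107% and 0.102% with DMSO and 0.133%, 0.0602%, 0.0632% and 0.0928% with itraconazole. Treated replicates 2 to 4 lay below the controls and replicate 1 within them. The log2 difference in SW948 was -0.11 ± 0.18 with TMM and -0.43 ± 0.20 with plain totals (SE), and without treated replicate 2 the TMM value was 0.02. In HT55 the shares overlapped, from 0.202% to 0.212% with DMSO and from 0.199% to 0.252% with itraconazole, with a log2 difference of 0.24 ± 0.069 (SE).

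MT-ATP6 encodes a membrane subunit of the proton channel of ATP synthase. In HT55 its share ran from 0.0762% to 0.0812% with DMSO and from 0.0926% to 0.108% with itraconazole, without overlap, and the log2 difference was 0.46 ± 0.062 (SE). In SW948 it was 0.0634%, 0.0536%, 0.0445% and 0.0442% with DMSO and 0.0707%, 0.0310%, 0.0306% and 0.0487% with itraconazole. Treated replicate 1 was above the controls, replicates 2 and 3 below them and replicate 4 among them. The log2 difference was 0.13 ± 0.20 with TMM and -0.18 ± 0.22 with plain totals (SE), and without treated replicate 1 the TMM value was -0.12.

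Over the 10 genes, the shares of the treated HT55 libraries lay above those of all controls for 6 genes, below for 1 and overlapped for 3. Among the genes tested in HT55, 16.8% lay above and 35.6% below. These shares were part of the choice of the genes. In the difference between the lines in their treatment values, 4 of the 10 genes were called higher in SW948 and 1 lower, where 53.9% of 13249 genes were called, 24.8% higher and 29.1% lower, and nothing is read from it.

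**Figure D2:**
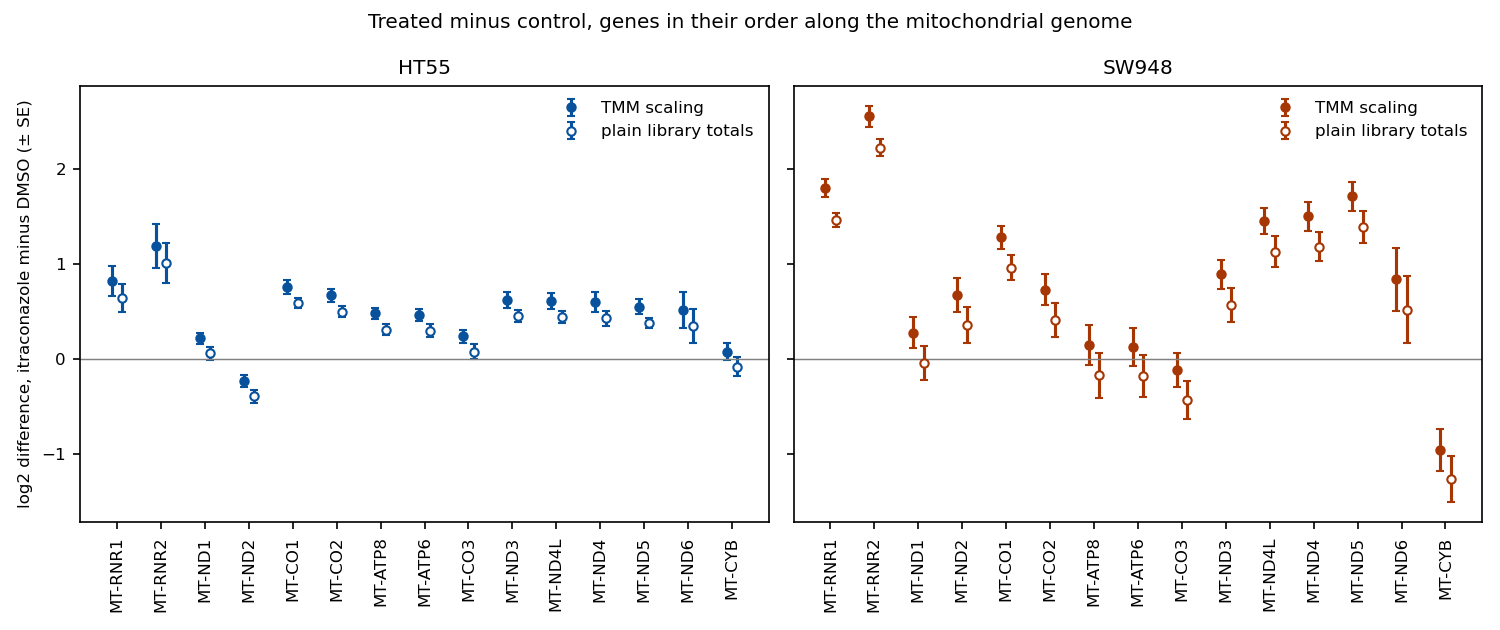
Log2 difference, itraconazole minus DMSO, with its SE, for the 10 genes, the other protein genes and the ribosomal RNA genes, in their order along the mitochondrial genome. Filled points use TMM scaling and open points plain library totals, and in SW948 the values of the 10 genes ran from -0.95 for MT-CYB to 1.71 for MT-ND5 with TMM.

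To set library scaling aside, each gene was expressed as a percentage of the summed counts of the 10 genes in its own library. In SW948, MT-CYB was 13%, 12.9%, 12.4% and 13% of the sum with DMSO and 4.57%, 3.26%, 3.09% and 3.48% with itraconazole. MT-CO3 was 12.1%, 12.2%, 13.1% and 12.2% with DMSO and 7.15%, 5.80%, 5.63% and 6.42% with itraconazole. MT-ND5 was 6.97%, 6.79%, 7.11% and 6.58% with DMSO and 12.6%, 12.9%, 12.3% and 12.2% with itraconazole. The treated libraries lay apart from the controls for all 3 genes. Treated replicate 1, whose summed share was the highest, had the highest MT-CYB and MT-CO3 percentages of its group.

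MT-ND4 went from a mean of 17.9% ± 0.590 to 28.6% ± 1.65 of the summed counts in SW948, and MT-CO1 from 15.9% ± 0.578 to 21.7% ± 1.5 (SD, n = 4). MT-ATP6 went from 5.42% ± 0.0790 to 3.22% ± 0.468, MT-ND1 from 8.75% ± 0.50 to 5.94% ± 0.188, MT-ND2 from 6.09% ± 0.256 to 5.38% ± 0.312 and MT-CO2 from 10.7% ± 0.380 to 9.78% ± 0.709. In all, 3 genes had a higher percentage in every treated SW948 library than in every control, 6 had a lower one, and MT-ND3 overlapped. The percentages sum to 100 in each library, so a gain of some genes lowers the others.

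The HT55 composition moved less and in part for other genes. MT-CYB was 14.5%, 14.4%, 14.6% and 14.2% with DMSO and 11.3%, 8.64%, 12.4% and 11.7% with itraconazole. MT-ND2 went from 6.13% ± 0.125 to 3.77% ± 0.256 and MT-CO1 from 18% ± 0.254 to 21.9% ± 0.431 (SD, n = 4). The percentages of MT-ND1, MT-ND2, MT-CYB and MT-CO3 were lower in every treated library, those of MT-ND3, MT-CO1 and MT-CO2 were higher, and MT-ND4, MT-ND5 and MT-ATP6 overlapped.

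As a single measure of the change in composition, the share of counts that would have to move between genes to turn the mean DMSO composition into the treated one was 8.0 percentage points in HT55 and 22.1 points in SW948. Single pairs of a DMSO and a treated library differed by 5.45 to 12.1 points in HT55 and by 18.4 to 25.4 points in SW948. Pairs of libraries within a group differed by 0.421 to 1.0 points in HT55 DMSO, 2.03 to 7.42 in HT55 itraconazole, 0.833 to 3.54 in SW948 DMSO and 2.67 to 6.90 in SW948 itraconazole. In SW948 the treatment pairs lay beyond all pairs within groups, and in HT55 they overlapped with the pairs among treated libraries. Without both libraries numbered 1, the SW948 value was 23.2 points.

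**Figure D3:**
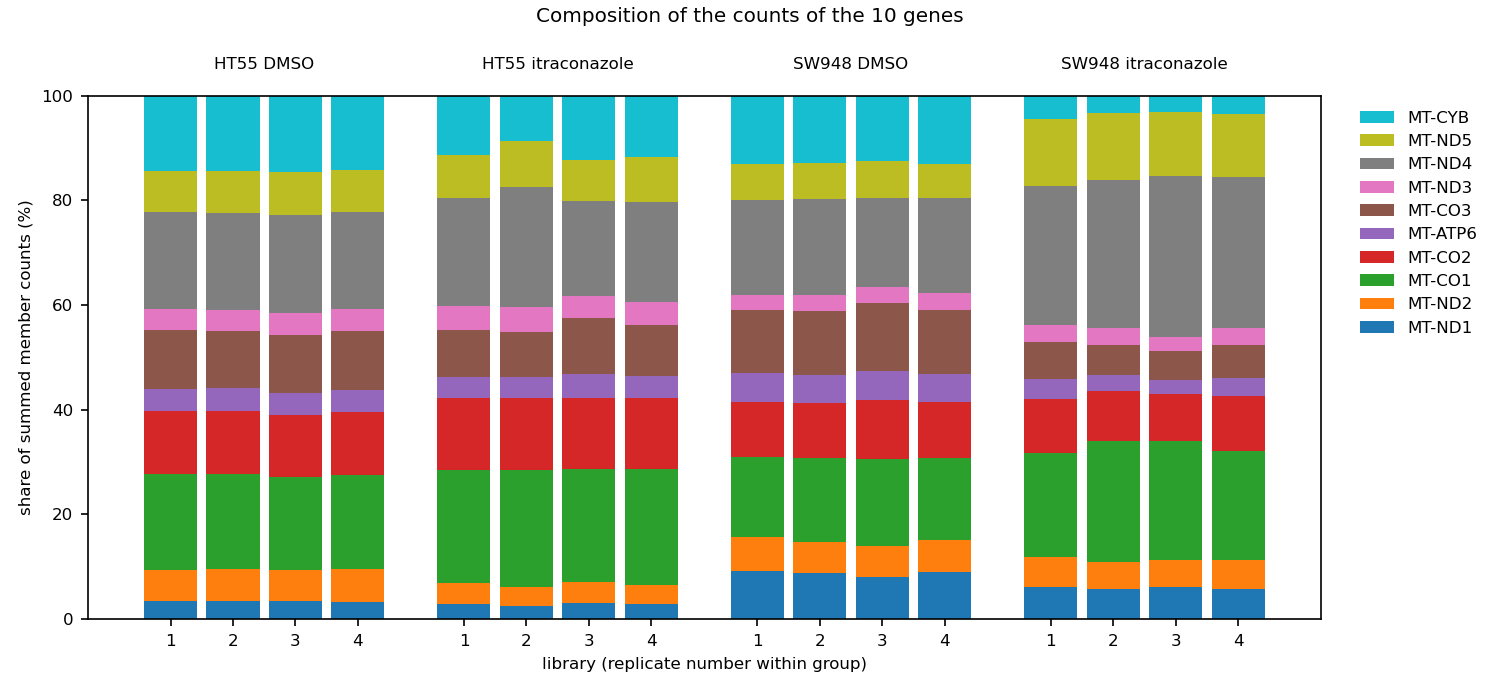
Composition of the counts of the 10 genes in each of the 16 libraries, as percentages of their sum, stacked in genome order with MT-ND1 at the bottom and MT-CYB at the top. The MT-CYB band narrowed from a mean of 12.8% to 3.60% in SW948 and from 14.4% to 11% in HT55, while the MT-ND4 band in SW948 widened from 17.9% to 28.6%.

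Ratios of genes within a library were compared as well. MT-ND5 and MT-CYB are separated on the genome only by MT-ND6, on the opposite strand, and a transfer RNA gene. The ratio of their counts in SW948 was 0.537, 0.525, 0.573 and 0.505 with DMSO and 2.76, 3.94, 4.0 and 3.49 with itraconazole. In HT55 it ran from 0.540 to 0.568 with DMSO and was 0.732, 1.03, 0.629 and 0.739 with itraconazole. The ratio of MT-CO1 to MT-CO3 in SW948 ran from 1.26 to 1.30 with DMSO and from 2.80 to 4.06 with itraconazole, and in HT55 from 1.59 to 1.64 and from 2.02 to 2.63. None of these ranges overlapped between treatments.

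For the genes that share a messenger RNA, and whose overlaps are printed above, the ratio stayed within narrow limits. MT-ND4L to MT-ND4 ran from 0.108 to 0.121 over all 16 libraries, with group means of 0.114 and 0.115 in HT55 and 0.117 and 0.113 in SW948. MT-ATP8 to MT-ATP6 ran from 0.131 to 0.151, with group means of 0.138 and 0.139 in HT55 and 0.142 and 0.140 in SW948. The treated and control ranges overlapped for both pairs in both lines.

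**Figure D4:**
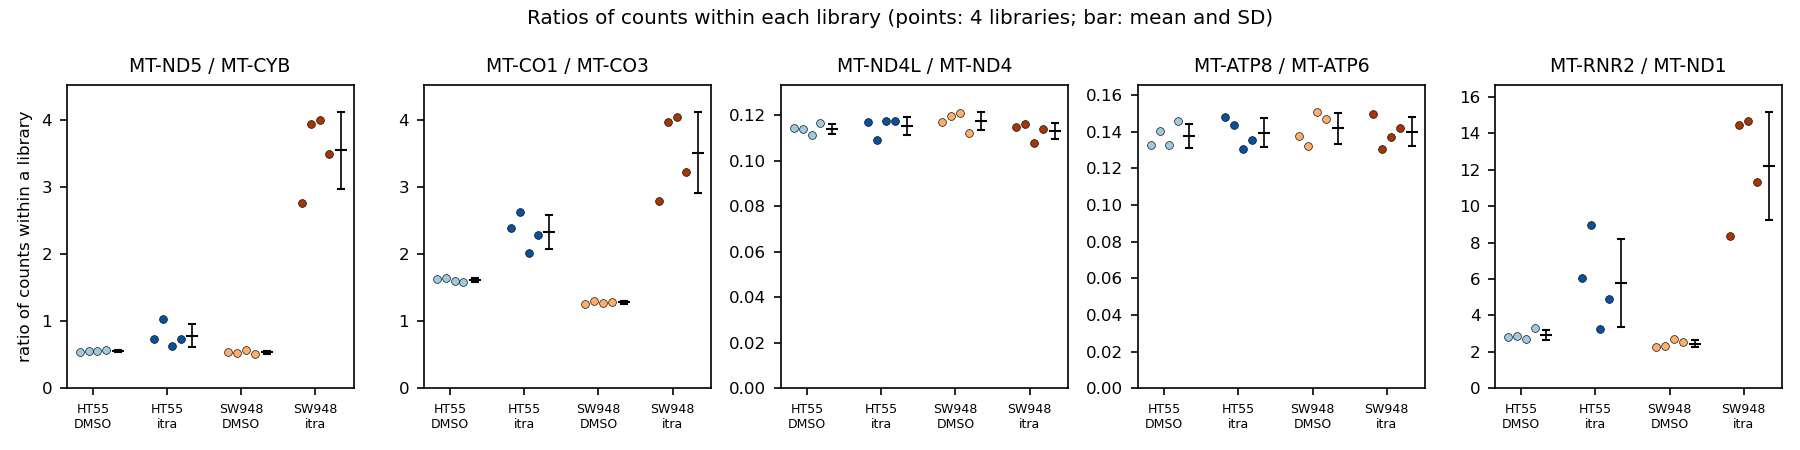
Ratio of the counts of 2 mitochondrial genes within each library, with the mean and SD of 4 libraries beside the points and axes that start at 0. The ratio of MT-ND5 to MT-CYB had a mean of 0.535 in SW948 DMSO and 3.55 with itraconazole, whereas MT-ND4L to MT-ND4 and MT-ATP8 to MT-ATP6, the pairs on shared RNAs, kept means of 0.113 to 0.117 and 0.138 to 0.142 in the 4 groups.

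The order of the genes was read from levels per length, as CPM per kilobase of gene. In HT55 DMSO, MT-CO2 was highest at 3251, followed by MT-CO3 at 2624, MT-ND4 at 2503 and MT-CYB at 2343, with MT-ND1 lowest at 657. Neighbours in that order did not overlap, except MT-ND3 and MT-CO1. In HT55 with itraconazole MT-CO2 was highest again at 4602 and MT-ND1 lowest at 684, and the levels from MT-ND4 at 3366 down to MT-CYB at 2214 overlapped from each gene to the next.

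In SW948 DMSO the highest level was 1496 CPM per kilobase for MT-CO3, beside 1485 for MT-CO2, and the lowest was 359 for MT-ND5. With itraconazole MT-ND4 was highest at 2809, followed by MT-CO2 at 1974 and MT-CO1 at 1897. MT-CYB, the fourth gene with DMSO at 1069, was last at 447. In both SW948 groups each gene overlapped in range with the next one in the order, except that MT-ND5 lay below MT-ND2 in SW948 DMSO.

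Parts of most of the 10 genes cannot give reads that align to a single place. Of all stretches of 50 bases, the read length, the share with an exact copy elsewhere in GRCh37 was 0% for MT-ND3, 1.65% for MT-CYB, 3.54% for MT-ND4 and 4.76% for MT-ND5. It was 25.6% for MT-ND1, 29.0% for MT-CO2, 30.9% for MT-CO3, 43.6% for MT-ND2, 48.3% for MT-ATP6 and 50.6% for MT-CO1. These copies are pieces of mitochondrial DNA in nuclear chromosomes, and reads that fit several places were left out of the gene counts. Stretches with a copy that differs by up to 2 bases were far more common, at 7.07% for MT-ND3, 18.7% for MT-CYB, 35.6% for MT-ND5, 38.4% for MT-ND1, 61.9% for MT-CO3 and 68.6% for MT-ND4, and 92.4% to 99.1% for MT-CO2, MT-ND2, MT-ATP6 and MT-CO1. Whether reads of such stretches were set apart depends on the alignment settings, which are not given in the sources used here.

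Levels per kilobase of uncopied positions, those without an exact copy, changed the order for some genes. MT-CO1 moved from position 6 to position 2 in HT55 DMSO, at 4522, and from position 3 to position 1 in SW948 itraconazole, at 3968. MT-CO2 remained highest in both HT55 groups, MT-CO3 in SW948 DMSO, and MT-CYB lowest in SW948 itraconazole, at 475. MT-CYB in SW948 DMSO stood at position 7 by this measure and not at 4.

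The share of reads that aligned to several places was 22.8% ± 0.734 of all counted reads in SW948 DMSO and 26.0% ± 0.452 with itraconazole (SD, n = 4). It was higher in 4 of 4 treated libraries than in all controls (two-sided exact permutation test, p = 0.0286, the smallest this design can give; 0.114 after Benjamini-Hochberg adjustment over 4 tests). In HT55 it was 26.6% ± 0.365 and 26.0% ± 1.85 (exact permutation p = 0.486). How many of these reads came from mitochondrial RNA was not tested.

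Without treatment the lines differed in most of the 10 genes. Shares in SW948 DMSO lay below those in all HT55 DMSO libraries for 9 genes. How many of all genes lay apart in this way between the lines was not computed. By edgeR 9 of the 10 genes were called lower and 0 higher. Over all genes 75.9% were called, 38.2% higher and 37.7% lower in SW948, and nothing is read from either count. The median log2 difference, SW948 minus HT55, was -1.27 with TMM and -1.07 with plain totals. The lowest was MT-ND3 at -1.59 ± 0.14 (SE). MT-ND1 alone was higher in all SW948 DMSO libraries, with a log2 difference of 0.21 ± 0.14 on TMM scaling and 0.41 ± 0.15 on plain totals. MT-ND1 made up 8.75% of the summed counts in SW948 DMSO and 3.39% in HT55 DMSO. The DMSO compositions of the lines differed by 7.82 points, close to the 8.0 points between treatments in HT55.

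The replicates of SW948 differed in all 10 genes together. After the group mean was taken off, Pearson r was computed for each of the 45 pairs of genes. Over the 8 SW948 libraries the median r was 0.963 and all 45 pairs were above 0. Over the 8 HT55 libraries it was 0.134, with 28 of 45 pairs above 0. In the HT55 groups taken singly, of 4 libraries each, 43 of 45 pairs were above 0 with DMSO and 24 of 45 with itraconazole. The pooled median over 16 libraries, 0.90, therefore rested on SW948, where the median SD of a gene around its group mean was 0.295 on the log2 scale, against 0.066 in HT55. Pairs of libraries of a group were also compared over all genes with enough counts, by chi-square per degree of freedom. It ran from 1.43 to 2.34 in HT55 DMSO and from 4.88 to 40.5 in HT55 itraconazole. In SW948 it ran from 2.45 to 4.85 and from 3.76 to 21.5. Treated SW948 replicate 1 gave 14.8, 21.5 and 5.93 with replicates 2, 3 and 4, against 3.76 between replicates 2 and 3. A link to the 10 genes was not tested. The genes of a library share its depth and scaling, and these values are a description.

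The nuclear genes whose levels most resembled the summed level of the 10 genes over the 16 libraries, each centred on its line, were TMEM97 (r = 0.949), HSD17B11 (0.930), TM9SF4 (0.927), CD46 (0.926) and PCK1 (0.922). TMEM97 is the sigma-2 receptor, a regulator of cellular cholesterol, and PCK1 is the cytosolic enzyme that commits oxaloacetate to gluconeogenesis. An r over 0.9 was reached by 25 of 8597 genes, or 0.29%. These genes were picked for this likeness, and both libraries and scaling are shared. PCK1 rose by 3.21 ± 0.24 in HT55 and 4.21 ± 0.29 in SW948 on the log2 scale (edgeR test, adjusted p = 7.14e-06 and 1.05e-08). The other 4 rose by 0.24 to 0.28 in HT55 and 0.33 to 0.52 in SW948 with TMM, and on plain totals none of them passed the test in either line.

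The remaining genes of the mitochondrial genome were tested in the fit across all genes, and 7 of 27 had enough counts. In HT55 5 rose and in SW948 6 rose, and none fell in either line. The median log2 difference was 0.52 in HT55 and 1.32 in SW948, against medians over all genes of -0.015 and -0.025. On plain totals 4 rose in HT55 and 5 in SW948. On either scale the genes that rose include MT-ND4L in both lines and MT-ATP8 in HT55. Both lie on RNAs of genes chosen by their measured values, so nothing is read from their part in these counts and medians.

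The ribosomal RNAs moved most. MT-RNR2 encodes the RNA of the large mitochondrial ribosomal subunit, and its share in SW948 was 0.243%, 0.199%, 0.178% and 0.188% with DMSO and 0.945%, 0.863%, 1.01% and 0.952% with itraconazole. All treated libraries were far above the controls, and it was the gene with the highest mean share of all genes in that group. It rose by 2.55 ± 0.11 in SW948 (edgeR test, adjusted p = 1.71e-10) and by 1.19 ± 0.23 in HT55 (adjusted p = 0.00153) on the log2 scale, and the responses of the lines differed by 1.39 ± 0.26 (adjusted p = 0.000202). The treated HT55 libraries were spread widely, with shares of 0.401%, 0.540%, 0.236% and 0.306%, against 0.171% to 0.200% with DMSO.

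MT-RNR1, the small-subunit ribosomal RNA, rose by 0.82 ± 0.16 in HT55 and by 1.80 ± 0.095 in SW948 (SE; edgeR test, adjusted p = 0.00198 and 9.75e-10). Its response also differed between the lines, by 1.01 ± 0.20 (adjusted p = 0.00028). The ratio of both ribosomal RNA genes to the summed 10 genes ran from 0.239 to 0.272 in SW948 DMSO and was 0.557, 0.935, 1.0 and 0.733 with itraconazole. In HT55 it ran from 0.120 to 0.156 and from 0.135 to 0.279. Treated SW948 replicate 1, which had the highest summed share of the 10 genes, had the lowest ratio of its group. Whether and how RNA with poly(A) tails was selected for these libraries is not given in the sources used here.

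MT-ND4L and MT-ATP8 lie on the RNAs of MT-ND4 and MT-ATP6, which were chosen by their measured values. The values of MT-ND4L and MT-ATP8 are therefore a description too, and nothing is read from their edgeR calls. MT-ND4L, a small complex I subunit, had log2 differences of 0.61 ± 0.083 in HT55 and 1.45 ± 0.14 in SW948 (SE), beside 0.60 and 1.5 for MT-ND4. MT-ATP8, a small ATP synthase subunit, had 0.48 ± 0.058 in HT55 and 0.15 ± 0.21 in SW948 (SE), beside 0.46 and 0.13 for MT-ATP6.

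MT-ND6, the complex I subunit encoded on the other strand, had few counts. It rose by 0.52 ± 0.19 in HT55 and 0.84 ± 0.33 in SW948 with TMM (edgeR test, adjusted p = 0.0376 and 0.0287), but not on plain totals (adjusted p = 0.124 and 0.184). It also missed the threshold without DMSO replicate 1, 2 or 3 or treated replicate 1 or 2 in HT55 (adjusted p from 0.0598 to 0.107), and without DMSO replicate 2, 3 or 4 or treated replicate 1 in SW948 (adjusted p from 0.0626 to 0.173). The transfer RNA genes gave 983 counts in all libraries together, with 17 of 22 genes under 20 counts. MT-TL1 and MT-TT, for leucine and threonine, passed the filter. They rose in SW948 by 0.96 ± 0.20 and 1.32 ± 0.32 (adjusted p = 0.00043 and 0.00175), and their values in HT55 were 0.14 and -0.19 (adjusted p = 0.651 and 0.571). MT-TT, the neighbour of MT-CYB, had 5 to 21 counts per library. Whether the counting used strand is not stated, so reads of the opposite strand cannot be told apart.

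Nuclear copies of mitochondrial genes were counted as genes of their own. Of 355 annotated copies, 4 had a mean of at least 10 counts, and their reads may be exchanged with the mitochondrial genes, so their values are uncertain. MTCO1P12, a copy of MT-CO1, rose by 1.1 ± 0.13 in HT55 and 1.85 ± 0.25 in SW948 (edgeR test, adjusted p = 8.26e-05 and 9.32e-06). MTND4P12, a copy of MT-ND4, rose by 1.47 ± 0.16 in SW948 (adjusted p = 1.08e-06), with 181 to 691 counts there, and held 1 to 6 counts in HT55 libraries. MTATP6P1, a copy of MT-ATP6, rose by 0.54 ± 0.061 in HT55 (adjusted p = 6.37e-05) and had a value of 0.06 ± 0.20 in SW948 (adjusted p = 0.777). MTND2P28, a copy of MT-ND2, rose in SW948 by 0.67 ± 0.19 with TMM (adjusted p = 0.00462) but not on plain totals (adjusted p = 0.137), and its value in HT55 was -0.12 ± 0.086 with TMM (adjusted p = 0.262) and -0.28 on plain totals, where it passed (adjusted p = 0.0213).

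Nuclear genes for the upkeep and expression of mitochondrial DNA were described next, in lists written from general knowledge. For comparison, HT55 had 27.5% of all genes tested that rose and 26.5% that fell, SW948 had 38.9% and 41.3%, with medians of -0.015 and -0.025. On plain totals more genes fell than rose, with 2279 that rose and 4710 that fell of 12133 in HT55 and 3145 and 6832 of 12505 in SW948, so the lower counts of risers on that scale below are read against these. Of 21 genes for transcription and DNA maintenance, HT55 had 3 that rose and 9 that fell, and SW948 had 6 and 13. On plain totals the numbers were 1 and 10 in HT55 and 0 and 15 in SW948. With TMM 57.1% and 90.5% of the list passed, where 54.0% and 80.2% of all genes did, and the median log2 differences were -0.22 and -0.52.

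TFAM, which packages mitochondrial DNA and starts its transcription, had levels of 127, 126, 132 and 133 CPM in HT55 DMSO and 90.3, 77.7, 104 and 87.1 with itraconazole. In SW948 the levels were 87.4, 90.6, 84.0 and 84.1 and then 35.4, 34.7, 31.9 and 35.8. TFAM fell by 0.53 ± 0.085 in HT55 and by 1.36 ± 0.067 in SW948 on the log2 scale (edgeR test, adjusted p = 0.000536 and 5.06e-10). The response differed between the lines by -0.80 ± 0.11 (adjusted p = 5.66e-06).

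SSBP1, which binds single-stranded mitochondrial DNA during replication, fell by 1.08 ± 0.10 in HT55 and by 2.26 ± 0.074 in SW948 (edgeR test, adjusted p = 2.26e-05 and 2.42e-11). POLRMT, the mitochondrial RNA polymerase, rose by 0.28 ± 0.059 and 0.55 ± 0.09 with TMM (adjusted p = 0.00272 and 6.71e-05). On plain totals the POLRMT values were 0.11 and 0.22 (adjusted p = 0.141 and 0.0771). POLG, the mitochondrial DNA polymerase, rose by 0.55 ± 0.09 in HT55 and 0.43 ± 0.059 in SW948 (adjusted p = 0.000598 and 1.07e-05), and on plain totals only in HT55 (adjusted p = 0.00195 and 0.179). TFAM and SSBP1 fell on both scales in both lines.

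Of 19 genes for processing and stability of mitochondrial RNA, HT55 had 2 that rose and 7 that fell, and SW948 had 4 and 11. On plain totals the numbers were 0 and 10 in HT55 and 1 and 15 in SW948. The shares that passed with TMM, 47.4% and 78.9%, were near those of all genes, 54.0% and 80.2%, and the medians were -0.16 and -0.52. Without treated HT55 replicate 3, 14 genes passed in HT55 in place of 9. SLIRP, which with LRPPRC binds and stabilises mitochondrial messenger RNAs, fell by 0.35 ± 0.085 and 0.62 ± 0.085 on the log2 scale (edgeR test, adjusted p = 0.00601 and 1.01e-05). LRPPRC itself had values of 0.07 ± 0.11 in HT55 (adjusted p = 0.639) and 0.24 ± 0.069 in SW948 (adjusted p = 0.00497), which turned to -0.11 and -0.09 on plain totals (adjusted p = 0.339 and 0.156). Without treated replicate 3 LRPPRC passed in HT55, at 0.19 (adjusted p = 0.0137).

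FASTK, whose mitochondrial form is known for its role in MT-ND6 RNA, fell by 1.58 ± 0.087 in SW948 (edgeR test, adjusted p = 1.4e-09) and had a value of -0.21 ± 0.096 in HT55 (adjusted p = 0.0831). FASTK passed in HT55 on plain totals, at -0.37 (adjusted p = 0.0179), and without treated replicate 3, at -0.29 (adjusted p = 0.00516). FASTKD5, known for processing RNA junctions that lack a transfer RNA, rose by 0.42 ± 0.16 in HT55 and 0.82 ± 0.12 in SW948 (adjusted p = 0.0402 and 2.62e-05), and on plain totals only in SW948 (adjusted p = 0.164 and 0.00116). In HT55 FASTKD5 also missed the threshold without DMSO replicate 1, 3 or 4 or treated replicate 2 or 4 (adjusted p from 0.0621 to 0.122). REXO2, an oligoribonuclease, fell by 0.70 ± 0.09 and 0.78 ± 0.067 (adjusted p = 0.000141 and 8.99e-08).

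PTCD2, of the same list, was picked for description after its values were seen, because it is known for the maturation of cytochrome b RNA. Its levels were 9.31, 12.7, 8.92 and 10.6 CPM in HT55 DMSO and 7.48, 4.84, 6.57 and 4.6 with itraconazole. In SW948 they were 10.6, 10.5, 10.9 and 10.6 and then 3.81, 4.90, 3.31 and 4.41. It fell by 0.82 ± 0.19 in HT55 and by 1.41 ± 0.14 in SW948 on the log2 scale (edgeR test, adjusted p = 0.00409 and 4.13e-07), and on plain totals as well. A part of PTCD2 in the MT-CYB values was not tested.

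Of 83 mitochondrial ribosome and translation genes, HT55 had 10 that rose and 39 that fell, and SW948 had 20 and 42. On plain totals 5 rose against 52 that fell in HT55, and 11 against 60 in SW948. With TMM 59.0% and 74.7% passed, where 54.0% and 80.2% of all genes did, and the medians were -0.16 and -0.22. MRPS16 and MRPS28, proteins of the small ribosomal subunit, fell in both lines. MRPS16 fell by 0.56 ± 0.092 in HT55 and 2.07 ± 0.093 in SW948 (edgeR test, adjusted p = 0.000613 and 2.31e-10). MRPL2 rose by 1.05 ± 0.078 in SW948 (adjusted p = 2.18e-08), and its value in HT55 was -0.11 ± 0.11 with TMM (adjusted p = 0.423) and -0.27 on plain totals, where it passed (adjusted p = 0.038). MRPS6 rose by 1.34 ± 0.36 in HT55 (adjusted p = 0.009), where the treated libraries varied with an SD of 27.8 around a mean of 48.5 CPM. The value of MRPS6 in SW948 was -0.22 ± 0.12 with TMM (adjusted p = 0.104) and -0.56 on plain totals, where it passed (adjusted p = 0.000713).

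The nuclear subunits of the complexes were counted complex by complex. For complex IV, 8 of 11 rose in HT55 and 10 of 11 in SW948, with none falling, and on plain totals 3 rose against 0 that fell in HT55, and 7 against 1 in SW948. The medians were 0.31 and 0.62 with TMM. COX7A2 rose by 0.52 ± 0.12 and 1.0 ± 0.068 (edgeR test, adjusted p = 0.00475 and 1.01e-08). For complex III, the partner of cytochrome b, 6 of 9 rose and 1 fell in HT55, against 6 and 0 in SW948, and on plain totals 3 rose against 1 that fell in HT55, and 4 against 3 in SW948. The medians were 0.25 and 0.52 with TMM. UQCRC2, a core protein of complex III, rose by 0.59 ± 0.18 and 1.16 ± 0.066 (adjusted p = 0.015 and 1.84e-09), and in SW948 this stands beside a log2 difference of -0.95 for MT-CYB.

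For complex I, 6 of 36 nuclear subunits rose and 5 fell in HT55, against 10 and 16 in SW948. On plain totals 1 rose against 16 that fell in HT55, and 4 against 26 in SW948. With TMM 30.6% and 72.2% passed, fewer than the 54.0% and 80.2% of all genes, and the medians of -0.01 and -0.05 lay near those of all genes. Without treated HT55 replicate 3, 18 subunits passed in HT55 in place of 11, while leaving out each of the other HT55 libraries left 5 to 8. NDUFA1 rose by 0.56 ± 0.14 and 1.20 ± 0.10 (edgeR test, adjusted p = 0.00555 and 9.52e-08), and NDUFA5 fell by 0.44 ± 0.082 and 0.66 ± 0.12 (adjusted p = 0.0012 and 0.000217). For ATP synthase, 2 of 15 rose and 3 fell in HT55, against 6 and 7 in SW948, and on plain totals 0 rose against 5 that fell in HT55, and 3 against 10 in SW948. The medians were 0.10 and -0.03 with TMM. Leaving out single HT55 libraries gave 2 to 9 subunits of ATP synthase in place of 5, with the 9 again without treated replicate 3 and the 2 without DMSO replicate 1, 2 or 4 or treated replicate 4.

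Complex II, with no mitochondrial gene, had 3 of 4 subunits that rose in HT55 and 2 that rose and 1 that fell in SW948. On plain totals 2 rose against 1 that fell in HT55, and 2 against 2 in SW948. The medians were 0.36 and 0.29 with TMM. SDHA, its flavoprotein, rose by 0.62 ± 0.07 and 0.69 ± 0.061 (edgeR test, adjusted p = 6.36e-05 and 1.31e-07), and SDHC, a membrane anchor, fell by 0.95 ± 0.10 in SW948 (adjusted p = 1.25e-06). The value of SDHC in HT55 was -0.07 with TMM (adjusted p = 0.477) and -0.24 on plain totals, where it passed (adjusted p = 0.0187).

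**Figure D5:**
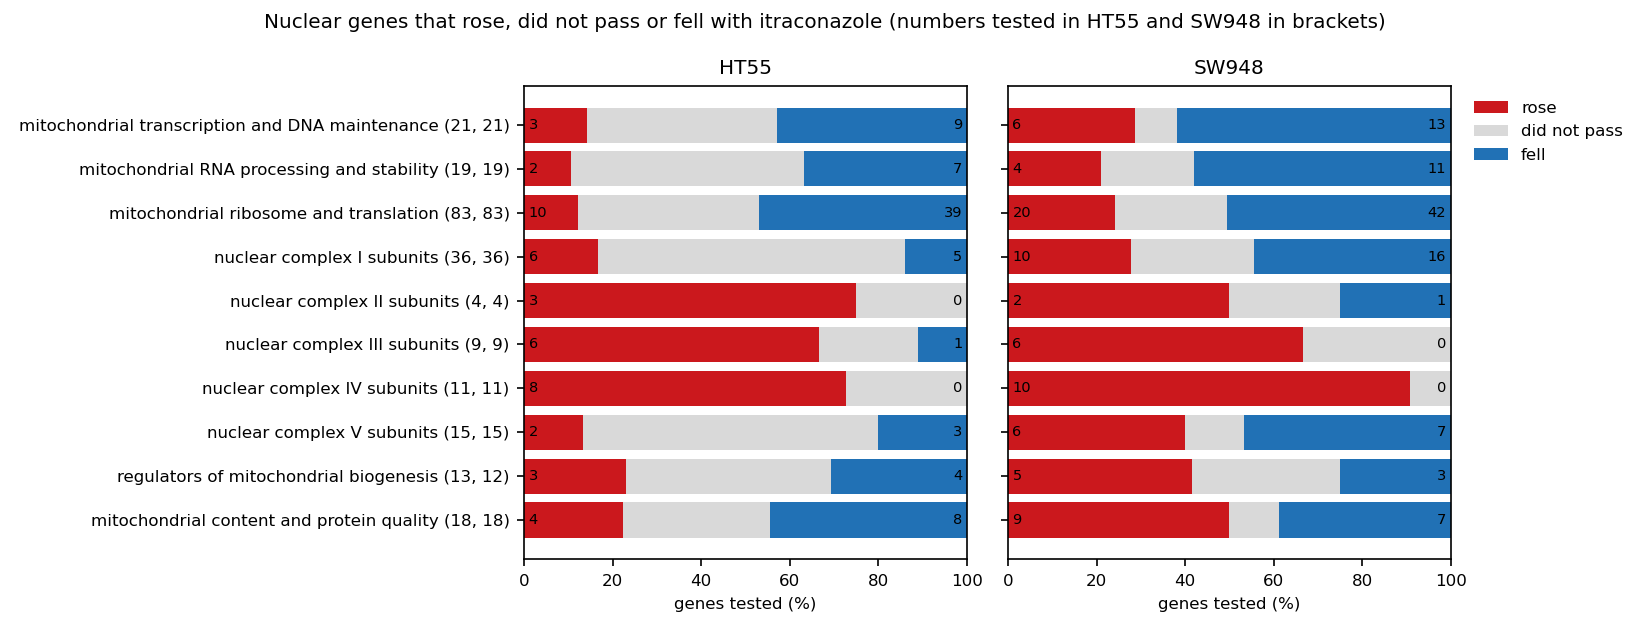
Nuclear genes of each list that rose, did not pass or fell with itraconazole (edgeR with TMM, adjusted p under 0.05), as percentages of the genes tested, with the number that rose at the left and the number that fell at the right of each bar. Complex IV subunits had 8 and 10 of 11 rising, and the list for transcription and DNA maintenance had 9 and 13 of 21 falling, in HT55 and SW948 with this scaling.

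Among 13 regulators of mitochondrial biogenesis tested in HT55, 3 rose and 4 fell, and among 12 in SW948, 5 rose and 3 fell. On plain totals 3 rose against 6 that fell in HT55, and 3 against 5 in SW948. The medians were 0.01 and 0.11 with TMM. PPARGC1A, a coactivator that drives biogenesis, had values of 0.24 ± 0.20 and -0.13 ± 0.28 (edgeR test, adjusted p = 0.334 and 0.669), at 1.37 to 1.48 CPM on average in SW948. Without treated replicate 3 PPARGC1A passed in HT55, at 0.41 (adjusted p = 0.0283). ESRRA, its nuclear receptor partner, rose by 0.89 ± 0.069 in HT55 and 0.61 ± 0.085 in SW948 (adjusted p = 8.39e-06 and 1.25e-05). GABPB2 fell by 0.93 ± 0.098 and 2.22 ± 0.22 and YY1 rose by 0.56 ± 0.073 and 1.40 ± 0.09, each past the test in both lines on both scales.

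Of 18 genes for mitochondrial content and protein quality, HT55 had 4 that rose and 8 that fell, and SW948 had 9 and 7. On plain totals 2 rose against 9 that fell in HT55, and 6 against 10 in SW948. With TMM 66.7% and 88.9% passed, where 54.0% and 80.2% of all genes did, and the medians were -0.05 and 0.01. LONP1, the matrix protease that also degrades TFAM, fell by 0.84 ± 0.11 in HT55 and 2.06 ± 0.066 in SW948 (edgeR test, adjusted p = 0.00017 and 2.29e-11). VDAC2, a channel of the outer membrane, rose by 0.87 ± 0.17 and 1.38 ± 0.083 (adjusted p = 0.00198 and 3e-09).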

How the data were processed

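RNA from 16 cultures was sequenced by the authors (TruSeq, HiSeq, single-end reads of 50 bases). The authors deposited raw read counts per Ensembl gene, 1 table per library. The submitters' processing notes name TopHat, HTSeq, DESeq and hg19, without versions, and the annotation release, strand setting and mitochondrial reference are not given in the sources used here. Reads with several alignments were set apart in rows of their own, so genes with nuclear copies lose reads. The 5 rows outside genes were left out of library sizes.

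Shares, compositions, ratios and levels per kilobase were computed with Python 3.11.15, pandas 2.3.3 and numpy 2.4.6. Positions came from GENCODE on GRCh37. Copies were searched as 50-base stretches, exact or with up to 2 mismatches. The edgeR 4.0.16 quasi-likelihood test (R 4.3.3, filterByExpr, TMM, no covariate) was fitted across all genes for each line, and on 16 libraries for the interaction and the lines in DMSO. P-values were adjusted by Benjamini-Hochberg over all genes tested, with a threshold of 0.05. SEs were derived from the log2 difference and F. CPM used TMM on 16 libraries, except that marker levels and levels per kilobase used plain gene totals. The edgeR fit of each line was tested on simulated counts.

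The genes and lists were chosen with earlier results of these data known. Named were all mitochondrial genes that passed the filter, the gene of each nuclear list with the largest rise and fall per line (mean log2 CPM of at least 3), the 5 nuclear genes most like the summed members, nuclear copies with at least 10 counts, and POLRMT, TFAM, LRPPRC, SLIRP and PPARGC1A. Alternatives were plain totals, DESeq2 1.42.0 size factors and Wald test, scaling without mitochondrial genes, no filter, 1 fit on 16 libraries, a replicate block, other denominators and lengths, and leaving out each library. The libraries held 8269406 to 11110814 gene counts each, and the effect of depth on the results was not tested. Without molecular identifiers counts are not independent molecules.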

Additional observations from a re-analysis of the deposited data

Results flagged for a closer look

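In each group of 4 libraries, the gap between an extreme library and its neighbour was divided by the range of the group. Dixon's limit for 4 values was passed in 14 of 280 groups examined, as many as the 14 that a rate of 1 in 20 would give. Among mitochondrial genes the values were 0.91 for the share of MT-ATP6 in HT55 itraconazole (replicate 3), 0.892 for MT-ND4L in HT55 DMSO (replicate 1) and 0.888 for MT-RNR1 in HT55 DMSO (replicate 4). For percentages of the summed 10 genes they were 0.888 for MT-ND3 in SW948 itraconazole (replicate 3), and, all for DMSO replicate 3, 0.902 for MT-ND4 and 0.893 for MT-CO3 in SW948 and 0.886 for MT-ATP6 in HT55. Reads outside genes gave 0.949 in HT55 DMSO (replicate 4) and reads with several alignments 0.91 in SW948 itraconazole (replicate 1). Levels of nuclear genes gave 0.878 for ATP5MG in HT55 DMSO (replicate 1), 0.891 for COX7A2 in SW948 itraconazole (replicate 1), 0.846 for NDUFA11 in SW948 DMSO (replicate 2), 0.842 for SDHC in HT55 DMSO (replicate 4) and 0.93 for SLIRP in HT55 itraconazole (replicate 4).

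The response to itraconazole differed between the lines, as the log2 response of SW948 minus that of HT55, for 28 of 47 named genes outside the 10 (edgeR interaction, adjusted p under 0.05). Over all genes tested 53.9% passed. Of other mitochondrial genes, MT-ND4L differed by 0.87, MT-RNR1 by 1.01, MT-RNR2 by 1.39, MT-TL1 by 0.85 and MT-TT by 1.55. MT-ND4L lies on the RNA of MT-ND4, which was chosen by its measured values, so nothing is read from the call of MT-ND4L. Of nuclear copies, MTCO1P12 differed by 0.77 and MTND2P28 by 0.81. Values above 0 were also found for ATP5MG (0.40), COX7A2 (0.51), NDUFA1 (0.66), UQCRC2 (0.59), MRPL2 (1.19), POLRMT (0.30), HSD17B11 (0.31), PCK1 (1.03), VDAC2 (0.54) and YY1 (0.87). Values below 0 were found for ATP5MF (-0.50), NDUFA11 (-0.66), SDHC (-0.85), MRPS16 (-1.49), MRPS28 (-0.54), MRPS6 (-1.54), FASTK (-1.34), GABPB2 (-1.27), LONP1 (-1.19), SSBP1 (-1.15) and TFAM (-0.80).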

How the results depend on the processing

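Of 510 recomputed values of the 10 genes, 483 were counted as the same in direction and size, 22 as moved, and 5 turned sign. Values counted as the same could still move by more than their SE, since plain totals alone moved most values by more. Plain library totals moved the median difference of the 10 genes to 0.337 in HT55, from 0.70 to 0.384 in SW948 and, between the lines in DMSO, to -1.07. They moved the number of genes that passed in HT55 to 17 for complex I, 4 for complex III and 3 for complex IV. They turned the sign for MT-CYB in HT55 (-0.0821), MT-ND1 (-0.0367), MT-ATP6 (-0.18), MT-ATP8 (-0.17) and MTATP6P1 (-0.25) in SW948, MT-TL1 in HT55 (-0.0237) and LRPPRC in both lines (-0.11 and -0.0891). The size of the sign changes follows the shift of all genes, which was -0.166 in HT55 and -0.329 in SW948. As a share of all rows, including reads outside genes, the summed genes were 1.26% and 1.58% in HT55 and 0.673% and 0.932% in SW948, and without the 20 largest nuclear genes 1.98% and 2.48% in HT55. The ratio of the highest to the lowest level per kilobase was 5.05 in HT55 DMSO and 4.33 in SW948 DMSO with length less read length, and 5.57, 5.95 and, in SW948 itraconazole, 8.36 with uncopied positions, a choice made after the data were seen, as were nuclear denominators and leaving out both SW948 libraries numbered 1. With 1 fit on 16 libraries 9 complex V subunits passed in HT55; the cause was not tested.

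Leaving out each library in turn gave 6 to 14 genes for RNA processing, 5 to 18 for complex I and 2 to 9 for complex V in HT55, where the highest values were those without treated replicate 3. In SW948 it turned the sign for MT-CO3 (-0.334 to 0.0247, highest without treated replicate 2), for MT-ATP6 (-0.116 to 0.267), MT-ATP8 (-0.146 to 0.308) and MTATP6P1 (-0.209 to 0.231), lowest without treated replicate 1, for MTATP6P1 also without DMSO replicate 3 (-0.000963), and for PPARGC1A (-0.284 to 0.0147, highest without treated replicate 2). In HT55 it did so for NDUFA11 (-0.211 to 0.0384, highest without treated replicate 2). In HT55 the difference in reads outside genes ran from -0.128 to 0.0976 points (0.0621 without treated replicate 1, 0.0741 without treated replicate 2, 0.0976 without DMSO replicate 4), and that in reads with several alignments from -1.25 to 0.0195 points (0.0195 without treated replicate 3).

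The deviations of same-numbered treated and control libraries had r from -0.013 to 0.104 in HT55 and from 0.009 to 0.095 in SW948. For differently numbered libraries r ran from -0.097 to 0.062 in HT55 and from -0.110 to 0.050 in SW948. The highest r of each line was between the libraries numbered 3. All values were small, and they cannot decide whether the numbers pair the samples. With the replicate number as a block, the median difference of the 10 genes was 0.50 in HT55 and 0.68 in SW948, and 6300 and 9973 genes passed, against 6553 and 10030 without it. Few counts fell on MT-ND6 and on the transfer RNA genes, and 3 transfer RNA genes had 0 counts in all 16 libraries. The cause was not tested.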
